A study of Mus musculus with 11 samples.

Results

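Cathepsins are the main proteases of the lysosome, and cystatin C is a secreted inhibitor of the cysteine cathepsins. Counts of 10 of these genes were examined in cerebral cortex: the microglial cathepsin genes Ctss, Ctsh, Ctsz and Ctsc, the widely expressed cathepsin genes Ctsa, Ctsb, Ctsd, Ctsf and Ctsl, and Cst3, which encodes cystatin C. They were taken by symbol from the 53700 genes counted, and they were selected on the difference between the genotypes in these same animals, which was known beforehand, so genotype values of the 10 genes are given as a description and support nothing further.

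The samples were cortices of 11 female 5xFAD mice aged 8 months, 6 with both copies of Abi3 (Abi3_WT) and 5 with Abi3 deleted (Abi3_KO). Abi3 encodes a microglia-enriched actin regulator. All 11 mice carried the 5xFAD transgenes, which the Thy1 promoter drives in neurons, so no animal free of the transgenes was compared. The labels give the strain as C57BL/6, whereas the study's methods describe a cross of a B6SJL transgenic line with a C57BL/6N knockout line and state that the mice analysed were heterozygous for an SJL variant of Trem2. The knockout is 1 targeted allele designed to remove the gene in every cell. RNA came from the right hemisphere after perfusion with saline.

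Cathepsins are made as inactive precursors, sorted to the lysosome mostly through mannose 6-phosphate receptors, and activated there by cleavage at acid pH. Cysteine cathepsins such as cathepsins S, L and B degrade proteins and trim the chains that occupy MHC class II molecules, cathepsin D is an aspartic protease, and cathepsin A is a serine carboxypeptidase. In brain, Ctss is expressed by microglia, whereas cystatin C is secreted mainly by astrocytes and other glia, and can bind amyloid-β.

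The promoter sequences below are shown because they hold 1 of 2 motifs, the one linked to lysosomal and the other to myeloid genes. RefSeq windows from 250 bases before to 50 bases after the annotated start were at hand for 8 of the 10 genes in build GRCm38.p6, with no entry for Ctsb and Ctsh. They were searched on both strands for CACGTG, a palindrome that forms the core of the element bound by the TFEB family of lysosomal regulators, and for GAGGAAGT, or ACTTCCTC on the other strand, a sequence of the type bound by PU.1, the myeloid transcription factor. The motifs do not overlap each other, and capitals mark them.
Ctss, chr3:95526666-95526806, + strand: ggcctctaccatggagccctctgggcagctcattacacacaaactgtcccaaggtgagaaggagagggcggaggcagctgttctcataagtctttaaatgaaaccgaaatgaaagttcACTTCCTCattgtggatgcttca
Ctsc, chr7:88277875-88277994, + strand: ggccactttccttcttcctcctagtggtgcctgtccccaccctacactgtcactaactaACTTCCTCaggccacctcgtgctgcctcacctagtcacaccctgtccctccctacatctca
Ctsd, chr7:142387898-142388077, - strand: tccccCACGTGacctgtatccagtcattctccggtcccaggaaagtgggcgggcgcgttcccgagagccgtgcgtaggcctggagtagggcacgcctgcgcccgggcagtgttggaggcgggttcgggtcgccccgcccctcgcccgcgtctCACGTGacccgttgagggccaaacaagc
Ctsa, chr2:164833673-164833793, + strand: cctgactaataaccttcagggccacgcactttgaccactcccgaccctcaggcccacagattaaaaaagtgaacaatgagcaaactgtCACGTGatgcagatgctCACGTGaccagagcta
Ctsf, chr19:4855045-4855164, + strand: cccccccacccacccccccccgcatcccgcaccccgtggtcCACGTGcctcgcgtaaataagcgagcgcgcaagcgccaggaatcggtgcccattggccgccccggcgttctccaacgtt
Ctsl, chr13:64370651-64370770, - strand: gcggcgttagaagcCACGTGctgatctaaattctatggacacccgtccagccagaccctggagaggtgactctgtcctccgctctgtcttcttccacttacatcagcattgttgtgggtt

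CACGTG was found in Ctsa, Ctsd, Ctsf and Ctsl, that is in 4 of the 8 genes (9 windows), and in 8.09% of the 27025 genes with windows of the same length. Ctsd held it at 245 and at 98 bases before the start. One of the 2 Ctsa windows held it on both sides of the start, the Ctsf copy lay 79 bases before the start, and the Ctsl copy lay 236 bases before it. The PU.1-type sequence was found in Ctss, where it spanned the start, and in Ctsc at 151 bases before the start, against 3.69% of these genes. The windows of Cst3 and Ctsz held neither. Such a match describes letters in a window and is not a measured binding site.

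QuantSeq reads 1 position close to the 3′ end of a transcript, so counts do not grow with transcript length and the levels below, in normalized counts, were compared between genes without division by length. Normalized counts are reads divided by a size factor per library. The members together took 0.341% of reads in genes in Abi3_WT and 0.357% in Abi3_KO cortices. Cst3 made up 59.1% of the member reads in Abi3_WT animals.

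Mean levels in Abi3_WT cortices followed the order Cst3, Ctsd, Ctsb, Ctss, Ctsl, Ctsz, Ctsa, Ctsf, Ctsh and Ctsc, from 7478 down to 43.19 normalized counts. Cst3 stood 3.49-fold above Ctsd and 173-fold above Ctsc. Among neighbours in this order, the ranges of the 6 Abi3_WT animals were separate for Cst3 and Ctsd, Ctsd and Ctsb, Ctss and Ctsl, and Ctsl and Ctsz. They overlapped for Ctsb and Ctss, and for each pair of neighbours from Ctsz to Ctsc, so the order of these neighbours was not resolved. Members farther apart in this tail could be separate, as Ctsz (117.1 to 191.7) and Ctsh (57.08 to 86.75) were. Ctss, a gene of a minority cell type in cortex, was thus counted at about the level of the widely expressed Ctsb, while the other microglial members were among the lower ones.

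**Figure D1:**
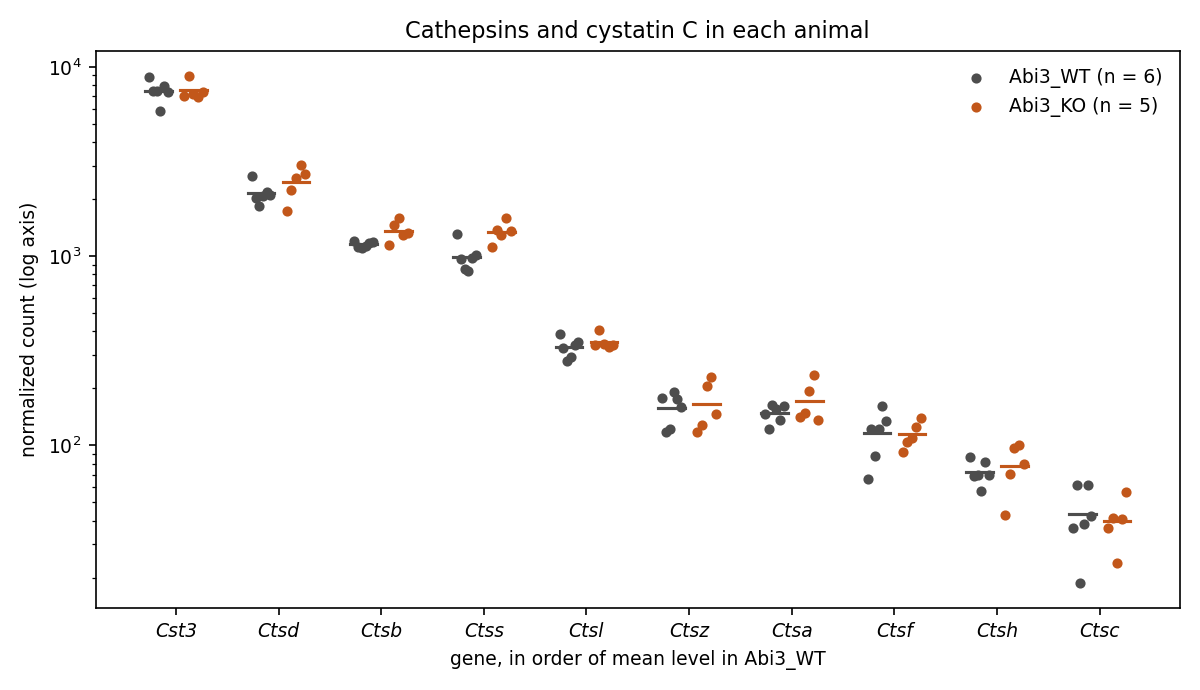
Normalized counts (log axis) of the 10 genes in each animal, with Abi3_WT in grey (n = 6) and Abi3_KO in orange (n = 5), and the group mean as a horizontal line. The genotypes overlap for each gene, and Ctss has the highest ratio of group means, at 990.4 and 1344.

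Ctss (ENSMUSG00000038642; chromosome 3, 95433963 to 95463717, + strand, GRCm39) encodes cathepsin S, a cysteine protease that stays active at neutral pH and cleaves the invariant chain of MHC class II. In Abi3_WT cortices its lowest value was 831.5, its median 968.8 and its highest 1309 normalized counts. The Abi3_KO animals had 1118, 1380, 1288, 1585 and 1350 normalized counts. All 5 Abi3_KO animals lay above the Abi3_WT mean and 3 of 5 lay above every Abi3_WT animal. The overlap came from 1 Abi3_WT animal, replicate 1 at 1309, since the next Abi3_WT value was 1014.

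The means of Ctss were 990.4 ± 172.1 (SD, n = 6) and 1344 ± 168.4 (SD, n = 5) normalized counts, a 1.36-fold difference with a 95% interval of 1.18 to 1.57. The log2 fold change was 0.44 (SE 0.106). Its DESeq2 adjusted p was 0.00782 over the 6690 genes left by independent filtering, and 0.0159 with that filtering off. Without Abi3_WT replicate 1 the log2 fold change was 0.54. In bulk cortex, more cells that express a gene and more RNA per cell cannot be told apart. The libraries also differed in reads outside genes, at 59.3 to 68.8 per 100 reads in genes in Abi3_WT and 49.8 to 62.5 in Abi3_KO, and with this share as a covariate the log2 fold change of Ctss was 0.74 and its DESeq2 adjusted p was 0.111.

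Of the 10 members, Ctss was the single gene past the threshold of an adjusted p at or below 0.05, which 0.482% of all 17626 tested genes reached in either direction and 0.312% reached as higher in Abi3_KO. As Ctss was chosen with this difference known, nothing is read from that count. DESeq2 gave an adjusted p to 6690 of the tested genes and to 9 of the 10 members, so the share among genes that could be called was higher. The values of both genotypes overlapped in all 10 members, whereas 0.539% of tested genes were higher in Abi3_KO with no overlap. The log2 fold change was above 0 in 8 of 10 members, with a median of 0.10, and the median over genes averaging 10 or more normalized counts was 0.01. Among genes averaging 50 or more, 54.8% were above 0.

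**Figure D2:**
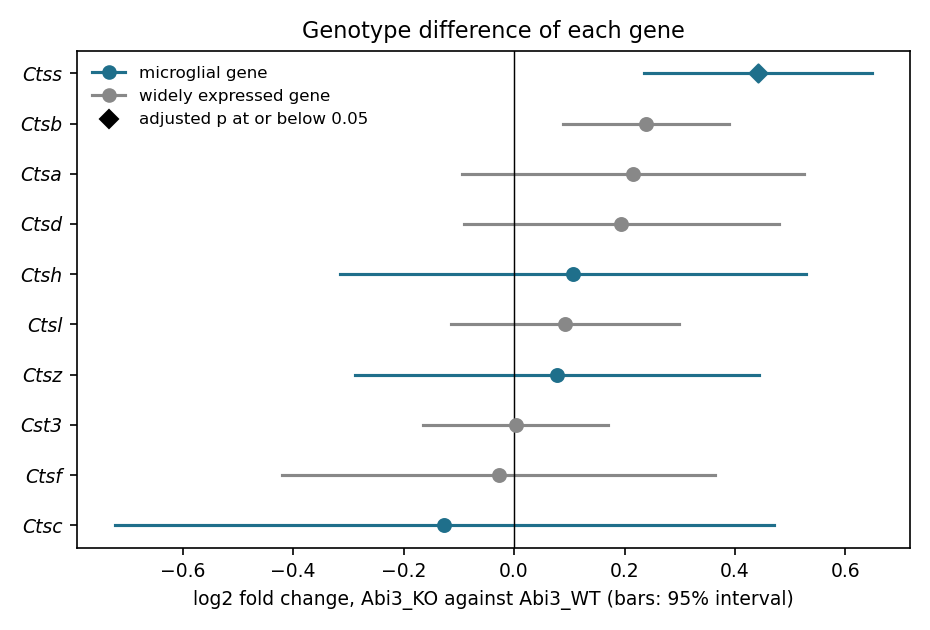
DESeq2 log2 fold change of each gene, Abi3_KO (n = 5) against Abi3_WT (n = 6), with its 95% interval as a bar; microglial genes are blue, widely expressed genes grey. The intervals of Ctss (0.24 to 0.65) and Ctsb (0.09 to 0.39) lie above 0, the other 8 include 0, and the diamond marks the adjusted p at or below 0.05.

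The other microglial cathepsin genes showed no called difference. Ctsh (ENSMUSG00000032359; chromosome 9, 89936205 to 89958148) encodes a cysteine aminopeptidase. Its Abi3_WT values ran from 57.08 through a median of 69.95 to 86.75 normalized counts, and the Abi3_KO animals had 43.0, 70.7, 96.69, 100.5 and 79.66. The Abi3_KO values were the more scattered and extended past the Abi3_WT range at both ends, and the log2 fold change was 0.11 (95% interval -0.32 to 0.53).

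Ctsz (ENSMUSG00000016256; chromosome 2, 174267304 to 174280832) encodes cathepsin Z, a carboxypeptidase. It was at 117.1, 167.0 and 191.7 normalized counts in the lowest, median and highest Abi3_WT animal, and at 117.5, 128.3, 206.5, 230.4 and 146.8 in the Abi3_KO animals. Replicates 3 and 4 of Abi3_KO were above all Abi3_WT animals while the other 3 were within their range. Its log2 fold change was 0.08 (95% interval -0.29 to 0.44), and it fell below 0 without Abi3_KO replicate 3 or 4.

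Ctsc (ENSMUSG00000030560; chromosome 7, 87927092 to 87960096) encodes a dipeptidyl peptidase that activates granule proteases. Its Abi3_WT values were 18.83, 40.33 and 61.56 normalized counts at the low end, the median and the high end, and the Abi3_KO values were 36.71, 41.41, 23.87, 40.66 and 56.9. The Abi3_KO values all lay within the Abi3_WT range. With 18 to 92 raw reads per library it was the least counted member, and DESeq2 gave it no adjusted p because its mean was under the filtering threshold of 66.64. Its log2 fold change was -0.13 with a 95% interval of -0.72 to 0.47, so neither a rise nor a fall of the size seen for Ctsb could have been detected.

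Among the widely expressed members, Ctsb (ENSMUSG00000021939; chromosome 14, 63358384 to 63383372) encodes cathepsin B, a cysteine endopeptidase that also removes dipeptides. It was the least variable member in Abi3_WT cortices, from 1100 through a median of 1157 to 1195 normalized counts, a coefficient of variation of 3.58%. The Abi3_KO animals had 1146, 1451, 1591, 1285 and 1329 normalized counts, so that 4 of 5 lay above every Abi3_WT animal and replicate 1 lay among them. Means were 1153 ± 41.27 (SD, n = 6) and 1361 ± 168.8 (SD, n = 5), and the log2 fold change of 0.24 (SE 0.0767) had a DESeq2 adjusted p of 0.0971. Without Abi3_KO replicate 1 the log2 fold change was 0.30 and the DESeq2 adjusted p was 0.0128, which passed.

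Ctsd (ENSMUSG00000007891; chromosome 7, 141929646 to 141941775) encodes the aspartic protease cathepsin D. It had 1841, 2085 and 2660 normalized counts in the lowest, median and highest Abi3_WT animal, and 1721, 2227, 2589, 3031 and 2703 in the Abi3_KO animals. Both the lowest and the highest of the 11 values were in Abi3_KO. The log2 fold change was 0.19 (95% interval -0.09 to 0.48) with a DESeq2 adjusted p of 0.634. The annotation also places a protein-coding gene model, Gm49369, over 6759 bases of Ctsd on the same strand, and it had 0 reads, so reads shared with it were not visible in these counts.

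Ctsa (ENSMUSG00000017760; chromosome 2, 164674778 to 164682961) encodes cathepsin A, which also protects lysosomal β-galactosidase. In Abi3_WT cortices it ran from 122.4 through 150.6 to 163.2 normalized counts, and in Abi3_KO cortices it was at 141.6, 148.5, 194.6, 233.8 and 135.4. Abi3_KO replicates 3 and 4, the animals that were also high in Ctsz and Ctsh, exceeded all Abi3_WT animals, and the log2 fold change was 0.22 (95% interval -0.09 to 0.53).

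Ctsl (ENSMUSG00000021477; chromosome 13, 64507151 to 64518704) encodes the endopeptidase cathepsin L. Its Abi3_WT values were 279.3 at the lowest, 332.7 at the median and 389.2 at the highest, and its Abi3_KO values were 337.7, 405.0, 341.4, 330.9 and 336.8 normalized counts. Apart from replicate 2, the Abi3_KO animals lay between 330.9 and 341.4, and the log2 fold change was 0.09 (95% interval -0.12 to 0.30). Ctsf (ENSMUSG00000083282; chromosome 19, 4905118 to 4915986) encodes cathepsin F, a cysteine protease, and had 66.2, 122.1 and 160.8 normalized counts in Abi3_WT and 92.29, 104.0, 109.8, 125.4 and 138.8 in Abi3_KO cortices. The Abi3_KO values were all inside the Abi3_WT range, and the log2 fold change was -0.03 (95% interval -0.42 to 0.36).

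Cst3 (ENSMUSG00000027447; chromosome 2, 148713635 to 148717887) encodes the inhibitor, cystatin C. It ran from 5834 through a median of 7468 to 8782 normalized counts in Abi3_WT cortices. The Abi3_KO animals had 7032, 8932, 7217, 6955 and 7337 normalized counts, of which replicate 2 was the highest of all 11 animals and the other 4 were below the Abi3_WT mean. The means were 7478 ± 961.5 (SD, n = 6) and 7494 ± 817.5 (SD, n = 5), with a log2 fold change of 0.00 and a 95% interval of -0.16 to 0.17, which leaves room for a difference of up to 1.13-fold. The interval of Cst3 lay wholly below that of Ctss, but the difference between the 2 genes was not tested.

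To compare the microglial with the widely expressed members, the mean log2(normalized count + 1) of each group was centred on Abi3_WT and subtracted within each animal. The mean log2 fold change was 0.13 over the 4 microglial and 0.12 over the 6 widely expressed members. The score of microglial minus widely expressed members was higher in Abi3_KO by 0.004, against a pooled SD of 0.161 between animals. Single Abi3_KO animals were at -0.154, -0.087, -0.066, 0.202 and 0.127, and Abi3_WT animals at -0.294 to 0.166, so the genotypes overlapped. Without Ctss the mean of the microglial members was 0.02 and the score difference was -0.103. Without Cst3 the score difference was -0.018. A log2 ratio of summed counts, in which the abundant Ctss carries most of the microglial sum, gave a difference of 0.29.

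Expression of the members was next set beside markers of the cells in the tissue. The summed normalized count of 16 microglial markers was 2202 ± 289.6 (SD, n = 6) in Abi3_WT, from 1925 to 2606, and 2441 ± 225.5 (SD, n = 5) in Abi3_KO, from 2124 to 2759. The sum was thus 10.9% higher in Abi3_KO with overlapping ranges. Of the 16 markers, 11 had a log2 fold change above 0 and 5 below, and none was called. Among all genes averaging 10 or more, 51.2% were above 0. The marker C1qa was at 0.47 (DESeq2 adjusted p = 0.0808), with 3 of 5 Abi3_KO animals above every Abi3_WT animal, as for Ctss. For other lists the sums in Abi3_KO differed by 7.8% (neurons), 7.5% (oligodendrocytes), -2.6% (astrocytes) and 25.6% (vascular and meningeal). Markers of border macrophages were low, at 11.59 to 48.85 normalized counts in sum in Abi3_WT and 29.84 to 61.45 in Abi3_KO. Among 7 markers of neutrophils, monocytes and lymphocytes, S100a8 and Cd79a were at 0 in all 11 libraries and 6 never exceeded 3 reads.

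Relative to the 16 microglial markers, Ctss was the member whose genotypes did not overlap. There were 45.0 ± 4.93 (SD, n = 6) Ctss counts per 100 microglial marker counts in Abi3_WT cortices, from 38.92 to 51.73. The Abi3_KO animals had 52.64, 55.85, 52.92, 57.43 and 55.81, and so all 5 were above all Abi3_WT animals. Separation of this kind, higher in Abi3_KO, was seen in 0.0644% of 7767 genes that averaged 50 or more normalized counts, with the markers left out. The marker sum was 10.9% higher in Abi3_KO, so dividing by it lowers ratios there and makes such separation rarer. Undivided counts separated in this way in 0.539% of all 17626 tested genes. The smaller share is therefore no measure of how unusual Ctss was. The margin between the groups was narrow, from 51.73 to 52.64, and Ctss had been chosen for its difference. Expressed in this way, the log2 ratios of the other members ran from -0.22 for Ctsc to 0.08 for Ctsb, with Cst3 at -0.15, and each of them overlapped between genotypes.

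**Figure D3:**
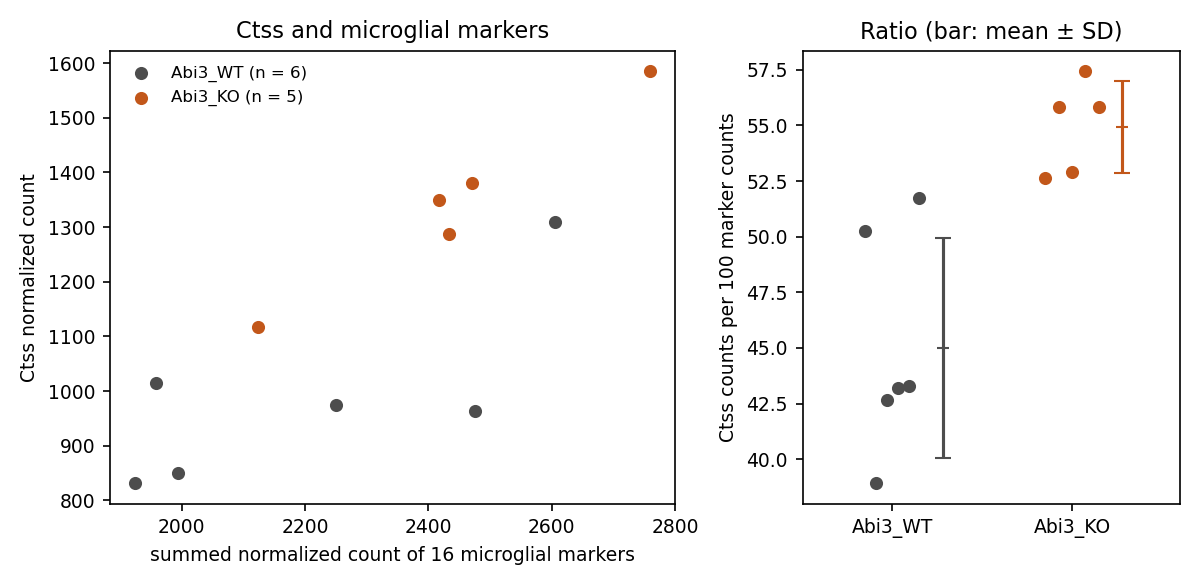
Left, normalized count of Ctss against the summed normalized count of 16 microglial markers, 1 point per animal. Right, Ctss counts per 100 marker counts in each animal, with the mean ± SD beside the points (the axis does not start at 0); the Abi3_KO animals (52.64 to 57.43) lie above the Abi3_WT animals (38.92 to 51.73).

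Within genotypes, animals with more microglial marker counts also had more Ctss. These relations are independent of the genotype difference, since each genotype's mean was removed, and 20 were computed, for 10 members and the summed microglial and astrocyte markers, over 11 animals. For Ctss and microglial markers Pearson's r was 0.82 (permutation test within genotype, two-sided, p = 0.00327; adjusted p = 0.0472) and Spearman's rho was 0.70 (permutation p = 0.0308; adjusted p = 0.205). Leaving out the 2 animals farthest from the median marker sum gave an r of 0.89. The rank-based value therefore did not pass after adjustment.

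Ctsd and Ctsh followed with r of 0.70 and 0.68 to the microglial markers, each with an adjusted permutation p of 0.058 and rho of 0.61 and 0.66. The lysosomal Ctsd, counted here among the widely expressed members, thus ranked between the microglial members Ctss and Ctsh, whereas Ctsz and Ctsc had r of 0.27 and 0.33. Ctsf had r of -0.15 and Ctsa of 0.07. With astrocyte markers, Ctsh had an r of 0.67 (adjusted permutation p = 0.0472), which fell to 0.34 without the 2 farthest animals and so rests on them. Ctss had an r of 0.51 to astrocyte markers (adjusted permutation p = 0.362), and 0.04 without the 2 farthest animals. Cst3 had an r of 0.58 to astrocyte markers (adjusted permutation p = 0.362), and -0.18 without the 2 farthest animals.

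**Figure D4:**
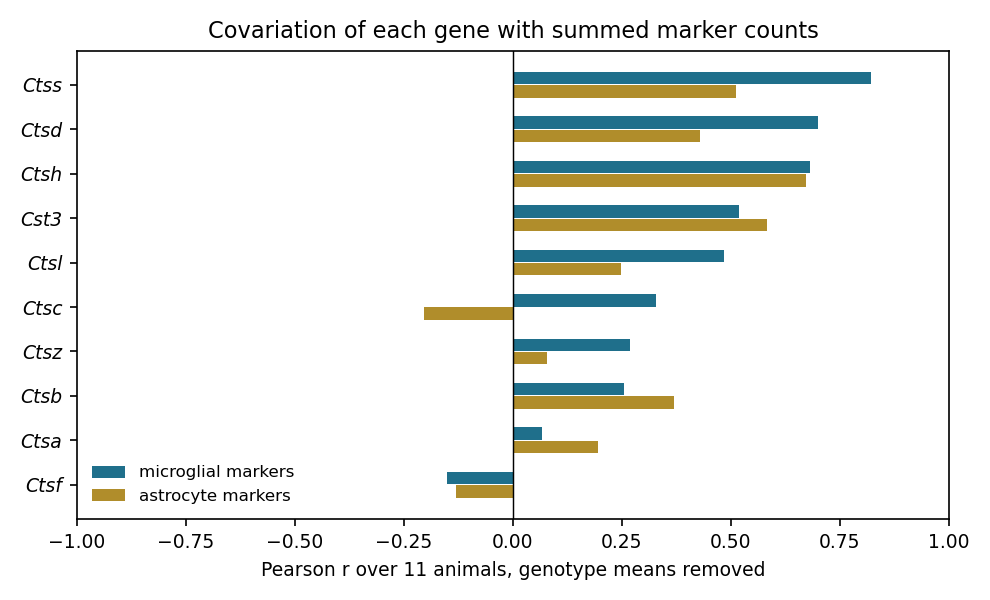
Pearson correlation of each gene with the summed normalized counts of microglial (blue) and astrocyte (ochre) markers over 11 animals after removal of genotype means. Ctss has the longest bar for microglial markers (0.82), followed by Ctsd (0.70) and Ctsh (0.68), while Ctsa and Ctsf stay near 0.

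Genes whose variation over the 11 animals was most like that of Ctss, among 7779 genes averaging 50 or more normalized counts and with genotype means removed, were Nek4 (r = 0.92), Aagab (0.91), Mageh1 (0.90), Creg1 (0.89) and Gjb6 (0.88). Creg1 encodes a lysosomal glycoprotein and Gjb6 an astrocytic connexin. Ctsd stood at position 20 in this order with r = 0.81, Ctsh at 107 and Ctsl at 130. For Cst3 the closest were Ubxn4 (r = 0.95), Unc5d (0.94), Tor1b (0.94), Vcam1 (0.89) and Clu (0.89), of which Clu encodes the astrocyte-secreted chaperone clusterin. Ctsl was the nearest member to Cst3, at position 56 with r = 0.79. These are descriptions over animals that share library and depth differences. The highest of 7779 correlations over 11 animals can reach such values by chance. No p was computed, and nothing is read from which genes came out closest.

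The wider lysosomal protease pathway was described with 78 listed genes, of which 70 were tested. DESeq2 gave 43 of them an adjusted p and called 0, and 1, Glb1, with independent filtering off; edgeR and limma gave all 70 an adjusted p and called 0. An unadjusted p under 0.05 was reached by 11 of the 70 genes, against 8.58% of all genes tested. Leaving out 1 animal called Scarb2 without Abi3_WT replicate 2, Glb1 and Laptm4a without Abi3_WT replicate 5, and Laptm5 without Abi3_KO replicate 1, genes named here after their values were seen. Of the 63 that averaged 10 or more normalized counts, 39 had a log2 fold change above 0, against 51.2% of all such genes, and their median was 0.10. The medians and the highest and lowest genes of each list below are over genes averaging 10 or more.

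Further cathepsin family genes other than Ctso were scarce in cortex. Of the 6 listed, 4 were tested and 0 had an adjusted p, so none could be called. Ctso, a cysteine cathepsin, averaged 51.44 ± 14.34 (SD, n = 6) normalized counts in Abi3_WT against 56.04 ± 10.29 (SD, n = 5) in Abi3_KO animals, or 0.13 on the log2 scale. Tinagl1, a secreted relative without protease activity, had a log2 fold change of 0.15. Ctsk, a collagen-degrading cathepsin, had a mean of 8.20 normalized counts in Abi3_WT and 8.47 in Abi3_KO animals.

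Inhibitors other than Cst3 likewise gave no called gene. Cst7, the cystatin F gene that activated microglia express, averaged 127.4 ± 32.07 (SD, n = 6) normalized counts in Abi3_WT against 125.5 ± 42.02 (SD, n = 5) in Abi3_KO animals. Its log2 fold change, -0.03, was the lowest of the list. Serpinb1a, a serpin that inhibits neutrophil-type serine proteases including cathepsin G, had the highest log2 fold change among the inhibitors averaging 10 or more, 0.57, from means of 22.33 and 32.75 normalized counts, without an adjusted p. Cst6, the cystatin E/M gene, was below that level, at means of 3.78 and 10.34 normalized counts, and had a log2 fold change of 1.47 (SE 0.682).

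Genes for activation, mannose phosphate tagging and sorting of cathepsins had a median log2 fold change of 0.09, and 0 of them were called. Gnptg, a subunit of the enzyme that makes the mannose phosphate tag, was lowest at -0.29, and Vps26a, a retromer subunit, was highest at 0.27 (DESeq2 adjusted p = 0.520 and 0.636). Regulators of lysosome formation and nutrient sensing had a median of -0.02, from -0.52 for Tfeb, at 13.52 and 9.42 normalized counts, to 0.39 for Rraga, a GTPase that recruits mTORC1 to the lysosome. Rraga averaged 168.4 ± 30.97 (SD, n = 6) normalized counts in Abi3_WT against 220.5 ± 23.13 (SD, n = 5) in Abi3_KO animals (DESeq2 adjusted p = 0.169).

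The 22 listed lysosomal hydrolases had a median log2 fold change of 0.02, from -0.24 for Man2b1, an α-mannosidase, to 0.92 for Glb1. Glb1 encodes β-galactosidase, the partner that cathepsin A protects. It ran from 30.68 to 38.81 normalized counts in Abi3_WT and stood at 63.97, 58.58, 69.23, 63.25 and 62.59 in Abi3_KO animals, with no overlap. DESeq2 gave it no adjusted p at this mean count; with independent filtering off its adjusted p was 0.0121, and it was 0.0699 with edgeR and 0.0871 with limma. Hence Glb1 separated the genotypes more widely than any of the 10 members did, while its call depended on the filter and the tool. With reads outside genes as covariate, its unadjusted DESeq2 p was 0.0248 instead of 1.58e-05, and it was not called. Separation without overlap, higher in Abi3_KO, was seen in 0.539% of tested genes, and on this list also for Arsb.

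Lysosomal membrane genes had a median of 0.11, from -0.08 for Npc1, a cholesterol exporter, to 0.52 for Cd68, a glycoprotein of phagocyte lysosomes. Cd68 averaged 79.07 ± 16.9 (SD, n = 6) normalized counts in Abi3_WT against 113.0 ± 22.39 (SD, n = 5) in Abi3_KO animals (DESeq2 adjusted p = 0.166). The listed genes of MHC class II antigen processing had no adjusted p. Cd74, which encodes the invariant chain that cathepsin S cleaves, averaged 4.40 normalized counts in Abi3_WT and 4.21 in Abi3_KO animals. H2-DMa had means of 45.25 and 30.19 normalized counts and a log2 fold change of -0.58, and H2-DMb1 had means of 10.52 and 14.82 and a log2 fold change of 0.47, so the values of these subunits of 1 peptide exchanger had opposite signs.

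**Figure D5:**
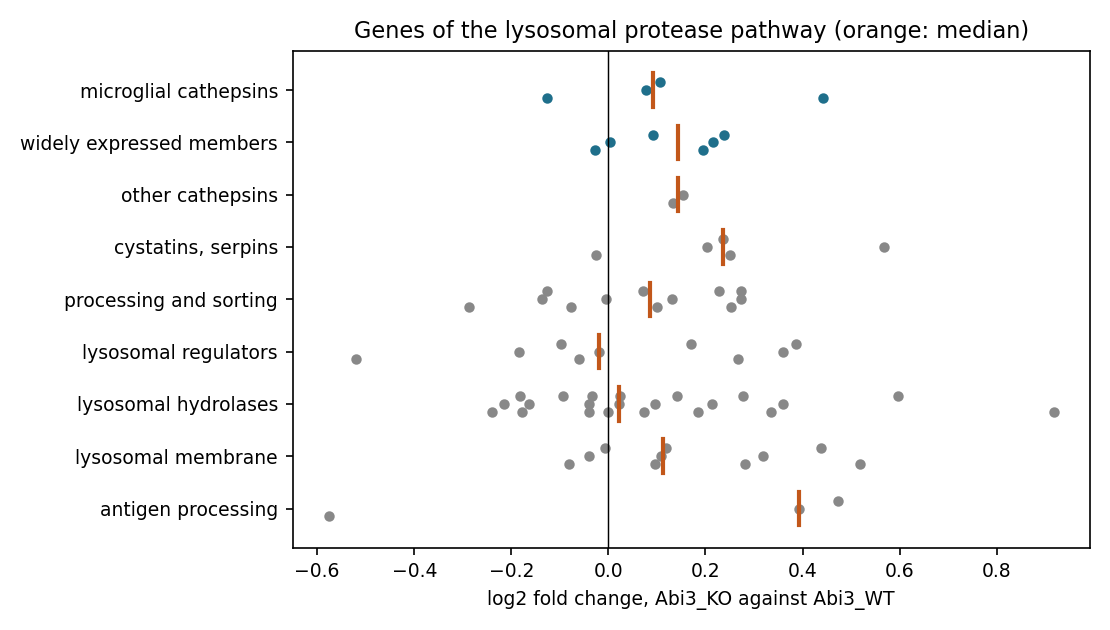
DESeq2 log2 fold change (Abi3_KO against Abi3_WT) of each gene averaging 10 or more normalized counts, by list, with members in blue, other genes in grey and the median of each list in orange. Glb1 at 0.92 is the farthest point to the right and H2-DMa at -0.58 the farthest to the left; medians range from -0.02 for lysosomal regulators to 0.39 for antigen processing, which rests on 3 genes.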

How the data were processed

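Per the labels and the study's methods, the authors made QuantSeq 3′ libraries, trimmed reads, aligned them with STAR (version 2.7.3a) to GRCm39 and counted reads per gene on their strand with HTSeq (version 0.9.1); the deposited values are raw counts, with no step that collapses PCR copies. Libraries held 3202310 to 5501958 reads in genes, so that 3 counts equal 0.545 to 0.937 CPM, which covers counting error only.

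In R (version 4.3.3), DESeq2 (version 1.42.0) fitted genotype alone, as in the study. With the study's cutoffs, genes needed 10 counts in total and 1.5 normalized counts on average, which left 17626 tested genes. The cutoff on the mean was applied before the adjustment, an order that the study's methods do not settle. Benjamini-Hochberg adjustment at 0.05 ran over the genes kept by DESeq2's independent filtering, which left 6690 genes with an adjusted p. With that filtering off, 58 genes were called. Abi3, the check of the labels, averaged 19.42 ± 11.08 (SD, n = 6) normalized counts in Abi3_WT against 0.404 ± 0.903 (SD, n = 5) in Abi3_KO animals. No source says that replicates share cultures or litters, and p-values measure the spread between these animals. Alternatives used edgeR (version 4.0.16), limma (version 3.58.1) and others. Scripts were tested on simulated data.

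The members, gene lists, markers and tests were chosen with earlier results of these data known. Ratios to marker counts, within-genotype correlations (100000 permutations) and the settings for Glb1 were added after the files were seen. Named are the 10 members and the 5 genes most like Ctss and Cst3. The highest and lowest gene of each list by log2 fold change, among those averaging 10 or more normalized counts, are also named. Ctsk, Cst6, Cd74, C1qa and Arsb were named after their values were seen. Some listed items are not reported here. Lists were matched by symbol to a newer annotation, which holds 52610 of the 53700 identifiers.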

Additional observations from a re-analysis of the deposited data

Results flagged for a closer look

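Among 50 groups of values examined over 25 genes, 5 held 1 animal far from the others of its genotype, by the gap to its nearest neighbour as a share of the range; chance gives about 2.5. Cst3 was at 8932 normalized counts in Abi3_KO replicate 2, against 7337 in the nearest Abi3_KO animal. Ctsl was at 405.0 in the same animal, against 341.4. Without this animal the log2 fold change of Cst3 was -0.068. Cst7 was at 199.9 normalized counts in Abi3_KO replicate 4, against 114.6 in the nearest, and this animal also had the highest Ctss and Ctsd. Tinagl1 was at 22.83 in Abi3_WT replicate 1, against 12.7. Abi3 was at 2.02 in Abi3_KO replicate 2 and at 0 in the other Abi3_KO animals, which is under 3 counts.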

How the results depend on the processing

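The 85 genes past the threshold, and 1512 at an unadjusted p under 0.05, became 37 with edgeR, 20 with limma, 35 with the replicate block and 3 with the reads outside genes as covariate, and 45 to 120 when 1 animal was left out; the lowest counts came without Abi3_KO replicates 2 (45) and 5 (47) and Abi3_WT replicate 6 (54). With the filter on the mean count placed after the adjustment, an alternative chosen after seeing the data, there were 95. Replicate numbers were not taken to pair animals: same-numbered animals correlated at 0.0399 on average and 1 of 5 pairs exceeded 0.1. The members past the threshold, 1, became 0 with the covariate and ran from 1 to 2 without 1 animal. Ctss passed in 21 of 22 alternatives, with log2 fold changes of 0.377 to 0.744 and adjusted p from 3.74e-06 to 0.111; with the replicate block it was 0.46. Ctsz ran from -0.069 to 0.18 without 1 animal, Ctsc from -0.285 to 0.0080 (0.017 with the covariate), Ctsf from -0.143 to 0.090 (0.015 with limma, 0.065 with the replicate block, 0.119 with the covariate) and Cst3 from -0.068 to 0.055 (-0.00033 with edgeR, -0.0036 with TMM factors, -0.154 with the covariate, -9.2e-05 in thinned libraries). The score of microglial minus widely expressed members, 0.004, was 0.294 as a ratio of summed counts and ran from -0.054 to 0.044 without 1 animal. This score was -0.103 without Ctss and -0.018 without Cst3. The covariate also gave Ctsz 0.782, Ctsa 0.598, Ctsd 0.57 and Ctsh 0.399. Ctsb, Ctsa, Ctsd, Ctsh and Ctsl kept their direction in all 22 alternatives, and Ctsb passed in 1. Their lowest values without 1 animal were 0.177, 0.077, 0.108, 0.00019 and 0.033. The direction of Ctsh was thus not resolved, as it stood at 0.00019 without Abi3_KO replicate 4. The causes were not tested. At this depth, Ctsc and 27 of the 70 tested pathway genes had no adjusted p.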
